A study of Rattus norvegicus with 32 samples.

Results

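Gadd45a, Cdkn1a, Runx1, Ncam1, Myog, Myod1 and Myf6 are 7 genes known either for responding to loss of the nerve in skeletal muscle or for directing the muscle gene programme. They were taken by symbol from the deposited expression table, where all 7 were among 12901 genes, and all 7 were among the 11594 genes with enough counts to be tested. They were chosen by their known roles and by their measured log2 changes in the cold in these same libraries, so those changes are given as a description, without a test. RNA of rat gastrocnemius, the large calf muscle, was read at transcript 3′ ends in 32 libraries. The groups were 7 libraries from control rats at room temperature (control_RT) and 7 from control rats after 2 weeks at 4 °C (control_4C). From UCP1 knockout rats there were 9 libraries at room temperature (KO_RT) and 9 after the same cold (KO_4C). No label says that each library is a separate animal. All rats were male, chow-fed and 20 weeks of age. UCP1 is the uncoupling protein that brown fat uses to make heat, and the knockout rats lack it. The labels give the rats as sampled before and after cold and do not say whether the same animals gave both muscles, nor do they give a strain.

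In adult muscle, signals from the motor nerve keep a set of genes silent outside the endplate, and cutting the nerve raises them. Myogenin, encoded by Myog, is the transcription factor best known for driving that response, and the acetylcholine receptor genes are among its targets. Gadd45a encodes a stress protein that acts in the nucleus of denervated fibres, Cdkn1a encodes the cyclin-dependent kinase inhibitor p21, Runx1 encodes a transcription factor that limits wasting of denervated muscle, and Ncam1 encodes a cell adhesion molecule that spreads over the surface of denervated fibres. Myod1 and Myf6, which encodes MRF4, belong with Myog to the family of myogenic basic helix-loop-helix factors that bind E-boxes in muscle gene promoters.

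Total counts ran from 7275508 to 25846976 per library. The 10 most abundant genes held 27.7% to 31.6% of counts in control_RT and 23.5% to 25.2% in control_4C, with 26.3% to 29.9% in KO_RT and 23.0% to 25.3% in KO_4C. Mitochondrial genes held 10.3% to 11.9% of counts in control_RT and 6.99% to 10.2% in control_4C, lowest in replicate 2, and the knockout groups overlapped at 8.96% to 12.6% warm and 8.12% to 11.5% cold. On the first principal component of log2 CPM (counts scaled to a common library total) replicates 2 and 3 of control_RT and the KO_RT libraries KO8 and KO10 lay lowest, at -65.6 to -41.3, and the next library was at -32.8. These 4 are called the libraries that stood apart. Values without these 4 libraries stand beside a result where they turn its sign or move it by over 1.5 times. The 8 muscle fibre markers, which are defining genes of the labelled tissue, were all present, with a summed level of 115823 to 217825 CPM per library. Summed levels of 6 intestinal epithelial markers had medians of 304 and 287 CPM in control_RT and control_4C. In KO_RT and KO_4C the medians were 225 and 208 CPM, and the highest library was at 798 CPM in control_4C. The source of this signal was not tested.

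Gadd45a was higher in the cold in both genotypes. In control_RT it lay between 13.3 and 17.5 CPM with a median of 13.9, and in control_4C between 19.9 and 53.8 CPM with a median of 32.9. In KO_RT it lay between 9.66 and 19.7 CPM with a median of 17.6, and in KO_4C between 26.9 and 45.4 CPM with a median of 29.4. Every cold library of a genotype stood above every room-temperature library of that genotype. The mean went from 14.5 ± 1.5 CPM (SD, n = 7) to 33.8 ± 10.4 CPM (SD, n = 7) in controls, a log2 change of 1.22 ± 0.16 (SE) with a 95% interval from 0.89 to 1.55, which is 2.33-fold. In knockout rats it went from 16.2 ± 3.48 CPM (SD, n = 9) to 32.6 ± 6.43 CPM (SD, n = 9), a log2 change of 1.0 ± 0.14 (SE) with an interval from 0.71 to 1.29. Its SD within groups, pooled over the 4 groups, was 0.31 on the log2 CPM scale.

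Cdkn1a had the largest cold change of the 7 genes in both genotypes. It lay between 7.91 and 19.0 CPM with a median of 12.3 in control_RT and between 25.4 and 120.0 CPM with a median of 38.3 in control_4C. In KO_RT it lay between 5.16 and 23.2 CPM with a median of 15.8, and in KO_4C between 34.4 and 119 CPM with a median of 92.0. As for Gadd45a, the cold and room-temperature libraries of a genotype did not overlap. The log2 change was 2.04 ± 0.36 (SE) in controls, or 4.11-fold, with a 95% interval from 1.31 to 2.77. It was 2.53 ± 0.32 (SE) in knockout rats, or 5.76-fold, with an interval from 1.88 to 3.17. Spread between libraries was wide in control_4C, where the SD was 67.0% of the mean and replicate 2 gave the value of 120.0 CPM. Without that replicate the control change was 1.65 on the log2 scale.

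**Figure D1:**
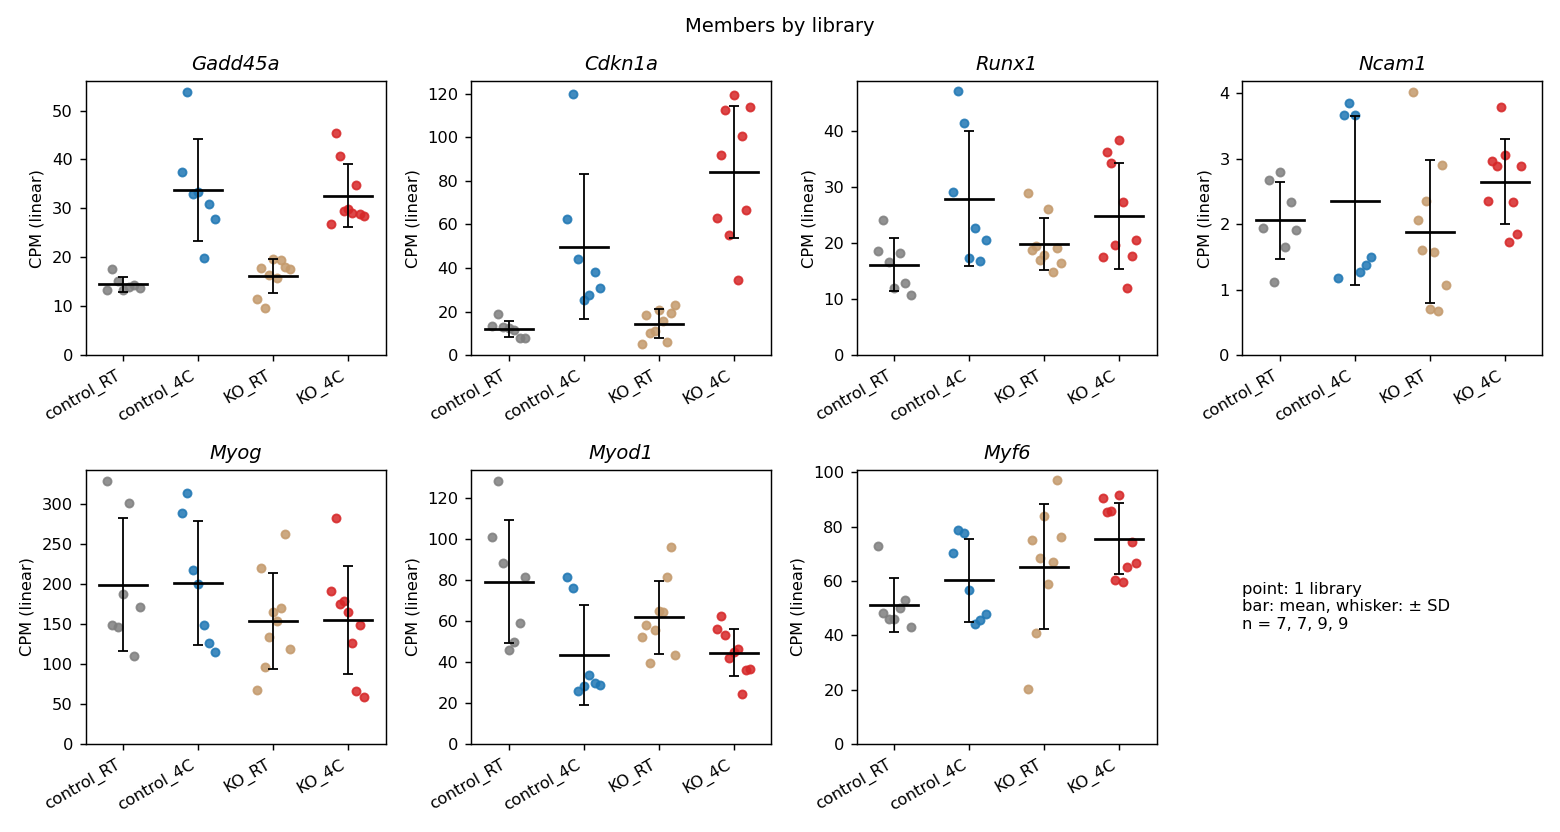
Level of each of the 7 genes in CPM (linear axis from 0) in every library, by group, with points for libraries, bars for group means and whiskers for the SD (n = 7, 7, 9 and 9). Gadd45a and Cdkn1a separate cold from room-temperature libraries in both genotypes, with Cdkn1a means of 12.2 and 49.9 CPM in warm and cold controls and 14.5 and 84.2 CPM in warm and cold knockout rats, while the groups overlap for the other 5 genes.

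Runx1 was higher in the cold in control rats, and the groups overlapped. It lay between 10.8 and 24.0 CPM with a median of 16.7 in control_RT and between 16.9 and 47.1 CPM with a median of 22.8 in control_4C, where all 7 libraries were above the room-temperature mean. In KO_RT it lay between 14.8 and 29.0 CPM with a median of 18.8, and in KO_4C between 12.1 and 38.4 CPM with a median of 20.6, where 5 of 9 libraries were above the room-temperature mean. The log2 change was 0.79 ± 0.25 (SE) in controls, with a 95% interval from 0.29 to 1.29, and 0.33 ± 0.22 (SE) in knockout rats, with an interval from -0.11 to 0.77. Leaving out replicate 6 or 7 of control_RT, or replicate 2 or 3 of control_4C, gave control changes of 0.61 to 0.74, and in those fits Runx1 was not in the count of called genes given further on.

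Ncam1 was scarce, at 10 to 52 counts per library. Its median was 1.94 CPM in warm and 1.5 CPM in cold control muscle, and 1.61 CPM in warm and 2.89 CPM in cold knockout muscle, over a range of 0.673 to 4.02 CPM in all. The log2 cold change was 0.18 ± 0.33 (SE) in controls, with a 95% interval from -0.49 to 0.84, and 0.53 ± 0.29 (SE) in knockout rats, with an interval from -0.069 to 1.12. All 4 groups overlapped.

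The 3 myogenic factors did not move together. Myog, the factor of the denervation response, had nearly equal group means in warm and cold muscle of each genotype. It lay between 109 and 329 CPM with a median of 171 in control_RT and between 114 and 313 CPM with a median of 199 in control_4C. In KO_RT it lay between 68.0 and 262 CPM with a median of 154, and in KO_4C between 58.7 and 282 CPM with a median of 164. The groups overlapped across nearly their whole ranges. The log2 cold change was 0.015 ± 0.32 (SE) in controls and 0.0041 ± 0.28 (SE) in knockout rats, with 95% intervals from -0.64 to 0.67 and from -0.57 to 0.58, which leave room for changes of either sign. Without the 4 libraries that stood apart the values were -0.14 and -0.18.

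Myod1, the factor of myoblast commitment that adult fast fibres also express, was lower in the cold in control rats. It lay between 45.8 and 128 CPM with a median of 81.6 in control_RT and between 25.7 and 81.5 CPM with a median of 29.8 in control_4C, where 6 of 7 libraries were below the room-temperature mean. In KO_RT it lay between 39.5 and 96.3 CPM with a median of 58.1, and in KO_4C between 24.3 and 62.5 CPM with a median of 44.7. Warm and cold ranges overlapped in both genotypes. The log2 change was -0.86 ± 0.27 (SE) in controls, with a 95% interval from -1.42 to -0.31, and -0.47 ± 0.24 (SE) in knockout rats, with an interval from -0.96 to 0.022. The control change was -0.71 without replicate 2 of control_RT, -0.77 without replicate 3 of control_4C and -0.64 without the 4 libraries that stood apart. It was -0.88 when the compared groups were fitted alone and -0.70 with scaling by library totals alone, where the median of all genes was 0.19 in place of 0.031. In each of these 5 fits Myod1 was not in the count of called genes.

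Myf6, known as the main factor of the family in mature fibres, had small cold changes. Its median was 48.1 CPM in warm and 56.8 CPM in cold control muscle, and 68.3 CPM in warm and 74.4 CPM in cold knockout muscle. Its range was 43.0 to 72.7 CPM, 44.4 to 78.8 CPM, 20.4 to 97.1 CPM and 59.6 to 91.7 CPM in the same order, and the groups overlapped. The log2 cold change was 0.23 ± 0.21 (SE) in controls and 0.21 ± 0.18 (SE) in knockout rats, with 95% intervals from -0.19 to 0.65 and from -0.16 to 0.58. Without the 4 libraries that stood apart, the knockout value was 0.0064.

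The balance of the 3 factors within a library, which does not depend on depth, was described by the log2 ratio of their CPM. The ratio of Myog to Myod1 had medians of 1.07 in warm and 2.08 in cold controls, and 1.28 in warm and 1.77 in cold knockout rats. The ratio of Myf6 to Myod1 had medians of -0.48, 0.62, 0.049 and 0.70 in the same order. Cold medians of both ratios were above the room-temperature medians in each genotype, and the ranges overlapped. The level of Myod1 enters both ratios, so they are not separate measurements.

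**Figure D2:**
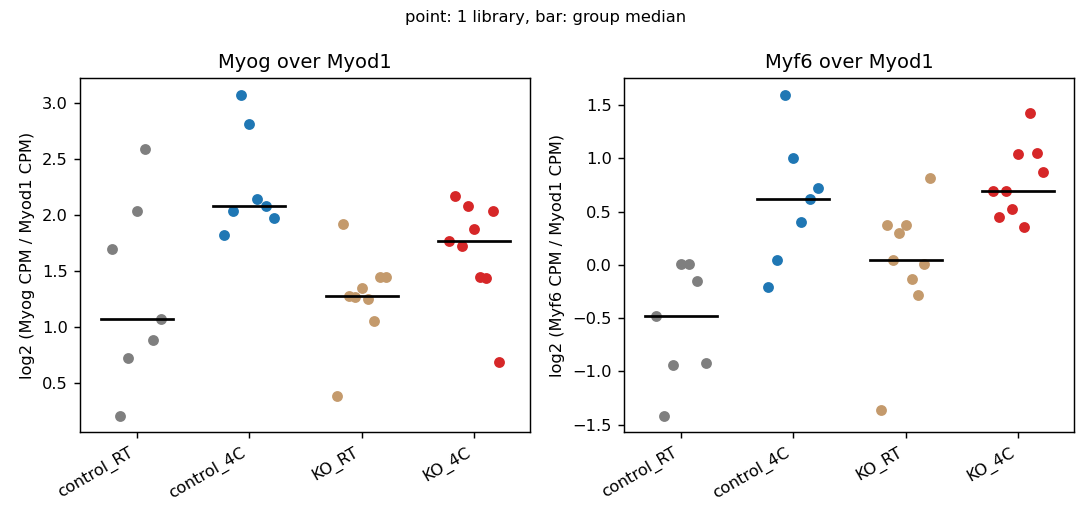
Log2 ratio of Myog to Myod1 (left) and of Myf6 to Myod1 (right) in every library, by group, with points for libraries and bars for medians. The control_4C medians of 2.08 and 0.62 lie above the control_RT medians of 1.07 and -0.48, with overlapping ranges.

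The promoters of Myog and Myf6 are shown because E-boxes and MEF2 sites in the promoters of these factors are a known route by which the family and the MEF2 factors act on muscle genes. RefSeq promoters on the GRCr8 build were at hand for 5 of the 7 genes, the others being Ncam1 and Myod1, which are not shown here. Each line gives the 250 bases before the gene's start, with E-boxes (CANNTG) and MEF2 cores (TANNNNTA) in capitals. Myog is at chr13:48297226-48297475 on the plus strand and Myf6 at chr7:44701314-44701563 on the minus strand.
Myog: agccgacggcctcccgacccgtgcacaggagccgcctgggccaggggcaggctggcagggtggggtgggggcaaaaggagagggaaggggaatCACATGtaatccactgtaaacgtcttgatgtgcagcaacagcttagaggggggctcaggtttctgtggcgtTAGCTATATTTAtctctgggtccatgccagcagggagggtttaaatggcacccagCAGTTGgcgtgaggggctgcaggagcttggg
Myf6: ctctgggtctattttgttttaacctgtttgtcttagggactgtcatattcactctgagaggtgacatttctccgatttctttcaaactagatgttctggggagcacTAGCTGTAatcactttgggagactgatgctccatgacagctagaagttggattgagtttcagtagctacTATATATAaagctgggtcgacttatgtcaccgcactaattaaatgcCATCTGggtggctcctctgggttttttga
Counted from the gene's start, E-boxes began at -157 and -31 in the Myog promoter and at -29 in that of Myf6. MEF2 cores began at -86 and -82 in Myog, overlapping each other, and at -144 and -75 in Myf6, where the full MEF2 consensus matched at -76. In windows that also held the 50 bases after the start, searched on both strands, 72.1% of 33469 promoters held an E-box, 40.2% a MEF2 core and 3.29% the MEF2 consensus. The RUNX motif TGTGGT was in none of the 5 promoters and in 17.3% of all of them. These letter matches are a description and do not show binding.

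By edgeR at an adjusted p of 0.05 over all genes, 3 of the 7 genes were higher and 1 was lower in the cold in controls (Gadd45a, Cdkn1a and Runx1, and Myod1), where 12.4% of all tested genes were higher and 8.28% lower. In knockout rats 2 of 7 were higher (Gadd45a and Cdkn1a) and 0 lower, where 7.49% of all genes were higher and 6.28% lower, and DESeq2 called the same number. Gadd45a and Cdkn1a were also 2 of the genes whose cold libraries all lay above the warm ones, which held for 3.42% of genes in controls and 0.975% in knockout rats. Since the genes were listed with the cold response known, nothing is read from these counts. The median log2 change of the 7 genes was 0.23 in controls and 0.33 in knockout rats, beside 0.031 and 0.012 over all genes.

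**Figure D3:**
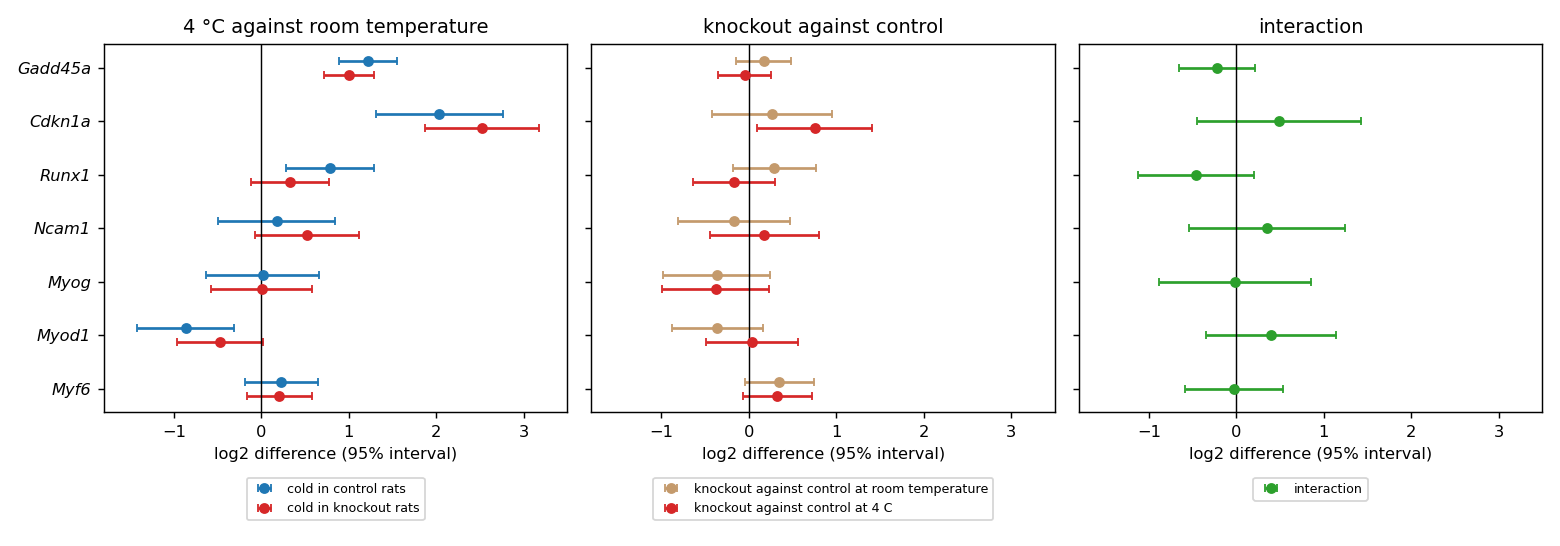
Log2 change of each of the 7 genes with its 95% interval, for cold in each genotype (left), for knockout against control at each temperature (middle) and for the interaction (right). The cold intervals of Gadd45a and Cdkn1a lie above 0 in both genotypes, with Cdkn1a at 2.04 and 2.53, while those of Myog are centred at 0.015 and 0.0041.

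Loss of UCP1 was tested at each temperature, since that contrast did not choose the genes. At room temperature none of the 7 genes passed the test, where 2.61% of all genes did, and adjusted p (edgeR) ran from 0.368 for Myf6, at a log2 difference of 0.35 ± 0.20 (SE), to 0.839 for Ncam1, at -0.17 ± 0.32. Of the 7 genes, 0 had an unadjusted p under 0.05, and DESeq2 called 0 of them. Over all genes DESeq2 called 577, beside 303 by edgeR. Myod1 was at -0.36 ± 0.25 (SE) and Myog at -0.37 ± 0.30, knockout minus control, with 95% intervals that include 0. Without the 4 libraries that stood apart Myf6 was at 0.49 ± 0.16 (SE), Gadd45a at 0.36 in place of 0.17, Cdkn1a at 0.61 in place of 0.27, Ncam1 at -0.41 and Myod1 at -0.044, and again 0 of the 7 genes passed.

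At 4 °C none of the 7 genes passed either, where 0.0518% of all genes did by edgeR. That share depended on the tool, with 6 of 11594 genes called by edgeR and 436 by DESeq2. Cdkn1a came closest, at a log2 difference of 0.75 ± 0.32 (SE) with a 95% interval from 0.096 to 1.41, and 8 of 9 KO_4C libraries were above the control_4C mean. Its unadjusted p was 0.0261 and its adjusted p was 0.249 (edgeR). It was the only 1 of the 7 with an unadjusted p under 0.05, and DESeq2 called 0 of them. Without replicate 2 of control_4C the difference was 1.14, and over the 32 fits that each left out 1 library the adjusted p (edgeR) ran from 0.0642 to 0.510. Gadd45a differed between genotypes in the cold by -0.049 ± 0.15 (SE), Myog by -0.38 ± 0.30, and Myf6 by 0.33 ± 0.20, each short of the threshold.

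The difference of the cold change between genotypes, tested as an interaction, passed for none of the 7 genes, where 0.0259% of all genes passed by edgeR. Of the 7 genes 0 had an unadjusted p under 0.05 and DESeq2 called 0. Over all genes DESeq2 called 112, beside 3 by edgeR. Runx1, called in controls and not in knockout rats, had an interaction of -0.46 ± 0.33 (SE) with a 95% interval from -1.13 to 0.21 and an adjusted p of 0.579 (edgeR). Myod1 had an interaction of 0.40 ± 0.36 (SE) with an adjusted p of 0.688 (edgeR), and Cdkn1a one of 0.49 ± 0.46 with an adjusted p of 0.698. Over the fits that each left out 1 library these ran from 0.23 to 0.63 for Myod1 and from 0.34 to 0.88 for Cdkn1a, the highest being without replicate 1 of control_4C for Myod1 and without replicate 2 of control_4C for Cdkn1a. Without the 4 libraries that stood apart they were 0.068 and 0.13. Those of Gadd45a, Ncam1, Myog and Myf6 went from -0.22 to -0.42, from 0.35 to 0.59, from -0.011 to -0.037 and from -0.023 to -0.17, and 0 of the 7 genes passed. The interaction is the difference of the cold changes of the genotypes, which were known when the genes were chosen. Its p-values therefore describe these libraries and are no independent test. A different cold response of the genotypes was not shown for any of the 7 genes.

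Other genes of the same pathways came from lists that hold none of the 7 genes. The lists were made with earlier results of these data known, so their adjusted p-values describe these libraries and are no independent support. Cell type markers aside, 27 of the 99 tested genes of these lists were called in controls and 17 in knockout rats. Of all tested genes, 20.7% and 13.8% were called. Of the acetylcholine receptor and endplate genes, 3 of 9 rose and 1 fell in the cold in controls, where 20.7% of all genes changed in either direction, and 2 rose and 1 fell in knockout rats, where 13.8% did. The median log2 change of these 9 was 0.26 and 0.35. Chrnd, the delta subunit of the receptor, rose by 1.56 ± 0.14 (SE) in controls (adjusted p = 4.87e-09, edgeR) and by 1.61 ± 0.13 in knockout rats (adjusted p = 5.00e-11). Chrnb1, the beta subunit, rose by 0.40 ± 0.12 (adjusted p = 0.0194, edgeR) and 0.69 ± 0.11 (adjusted p = 3.14e-05). Lrp4, the agrin receptor, rose in controls by 0.85 ± 0.22 (adjusted p = 0.00529, edgeR). Ache, which encodes the esterase that clears acetylcholine, fell by 0.85 and 1.03 on the log2 scale (adjusted p = 0.000117 and 9.89e-07, edgeR).

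Of the other genes linked to denervated or regenerating muscle, 6 of 19 rose and 3 fell in controls, and 5 rose and 1 fell in knockout rats, with medians of 0.17 and 0.099. Of all tested genes, 20.7% changed in controls and 13.8% in knockout rats. Sln, the small inhibitor of the calcium pump SERCA, rose by 3.29 ± 0.43 (SE) on the log2 scale in controls (adjusted p = 8.64e-06, edgeR) and 3.01 ± 0.37 in knockout rats (adjusted p = 1.49e-06). Ankrd1, a stretch-responsive titin-binding protein, rose by 1.21 ± 0.36 (adjusted p = 0.0159, edgeR) and 1.43 ± 0.32 (adjusted p = 0.00221), and Myh3, the embryonic myosin, by 1.32 ± 0.41 (adjusted p = 0.0203) and 1.29 ± 0.36 (adjusted p = 0.0141). Of the ubiquitin ligases of muscle wasting, Fbxo32 fell by 0.39 in controls (adjusted p = 0.0372, edgeR) and Trim63 was at -0.012 there (adjusted p = 0.955), and Fbxo30 rose by 0.91 in controls (adjusted p = 0.0136) and 0.75 in knockout rats (adjusted p = 0.0273). Hdac4, the deacetylase that links nerve activity to Myog in mice, was at 0.19 ± 0.16 in controls and -0.40 ± 0.15 in knockout rats, and neither passed the test.

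Of 18 genes of myogenic regulation and fusion, 4 rose and 1 fell in controls, and 1 rose and 1 fell in knockout rats. The shares over all tested genes were again 20.7% and 13.8%. The 4 were Id3 and Id4, inhibitors that bind the partners of the myogenic factors, Hes1, a Notch target, and Six4, a homeodomain factor. Id4 rose by 1.07 ± 0.22 (SE) in controls (adjusted p = 0.000788, edgeR) and 0.79 ± 0.19 in knockout rats (adjusted p = 0.00440), and Id3 rose in controls by 0.81 ± 0.23 (adjusted p = 0.0102). Mef2c fell in knockout rats by 0.30 on the log2 scale (adjusted p = 0.0434, edgeR). Mef2a, Mef2d, Id1, Id2, Pax7 and the E-protein genes Tcf3, Tcf4 and Tcf12 passed in neither genotype. Myf5, the remaining family member, and Runx2 had too few counts to be tested, and Runx3 and Dach2 were not analysed here.

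The counts of the next lists stand beside 20.7% of all tested genes changed in controls and 13.8% in knockout rats. Of 7 relatives or partners of Gadd45a and Runx1, 1 rose and 1 fell in controls. In knockout rats 0 passed, where 1 had an unadjusted p under 0.05 and DESeq2 called 0. Cbfb, the partner of Runx1, rose in controls by 0.71 ± 0.20 (SE, adjusted p = 0.0120, edgeR) and was at 0.21 in knockout rats (adjusted p = 0.484). Gadd45gip1, which encodes a protein that binds GADD45 proteins, fell in controls by 0.51 (adjusted p = 0.000294, edgeR). Gadd45b and Gadd45g passed in neither genotype, and neither did Cdkn1b and Cdkn1c, the inhibitors most like p21. Of 12 targets of p53, of which Cdkn1a is the best known, 1 rose and 1 fell in controls, and 0 passed in knockout rats, where 5 had an unadjusted p under 0.05 and DESeq2 called 0. The 2 were Phlda3, at 0.55 ± 0.19 (adjusted p = 0.0378, edgeR), and Btg2, at -0.40 ± 0.12 (adjusted p = 0.0156). Of 10 targets of the stress factor ATF4, which can drive Gadd45a, 1 rose and 1 fell in controls, and 2 rose in knockout rats, namely Ddit4 at 0.75 ± 0.13 (adjusted p = 0.000144, edgeR) and Trib3 at 1.05 ± 0.28 (adjusted p = 0.00884). Of 16 cell cycle genes, 0 passed in controls, where 3 had an unadjusted p under 0.05 and DESeq2 called 0, and 1 rose in knockout rats, Cdkn2b at 0.74 ± 0.19 (adjusted p = 0.00735, edgeR). Of 9 adhesion relatives of Ncam1, 3 rose in each genotype and 1 fell in controls. Those that rose included Itga7, the laminin receptor of muscle, at 0.45 ± 0.11 (adjusted p = 0.00349, edgeR) and 0.46 ± 0.10 (adjusted p = 0.00122).

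**Figure D4:**
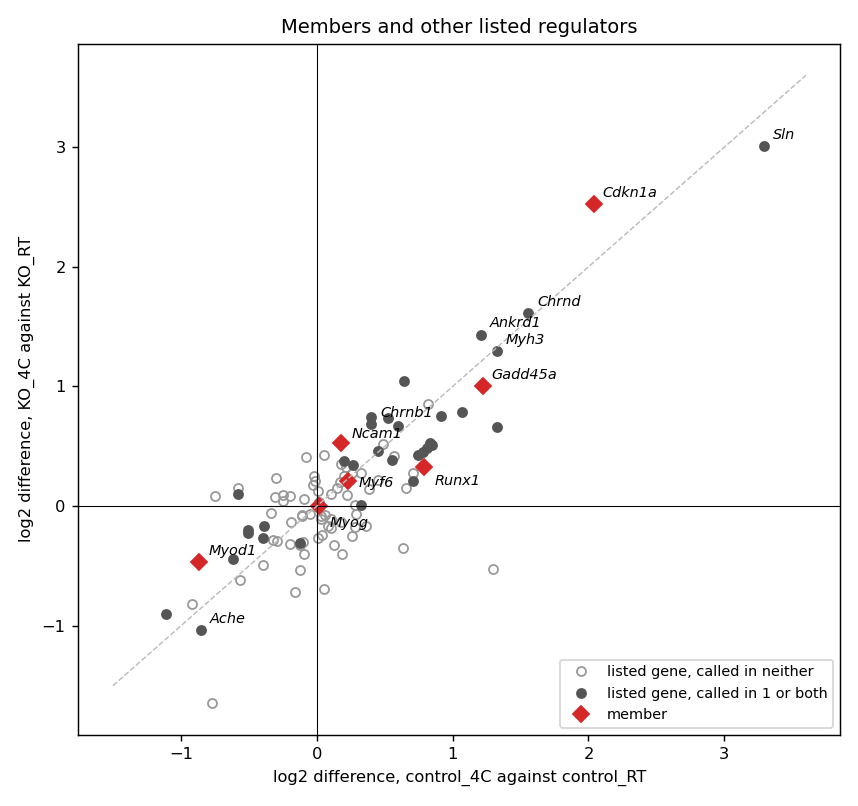
Log2 cold change in knockout rats against that in control rats for the 7 genes (diamonds) and the genes of the other lists (circles, filled where called in at least 1 genotype), with a dashed line of equal change. Chrnd, at 1.56 and 1.61, and Sln, at 3.29 and 3.01, lie far from 0 on both axes, and Myog lies near the origin.

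Whole muscle holds several cell types, and in bulk RNA fewer cells of a type and less RNA per cell cannot be told apart. The summed level of 11 macrophage and leukocyte markers was 81.3 to 126 CPM in control_RT and 125 to 194 CPM in control_4C, and 69.2 to 95.5 CPM in KO_RT and 99.4 to 183 CPM in KO_4C, with 4 of 11 markers higher and none lower in each genotype. Of all tested genes, 12.4% were higher and 8.28% lower in controls, and 7.49% were higher and 6.28% lower in knockout rats. The summed adipocyte markers had medians of 91.8 and 203 CPM in warm and cold controls and 137 and 207 CPM in warm and cold knockout rats. This adipocyte sum follows mainly Fabp4, with group means of 77.6 to 186 CPM. Of the 5 adipocyte markers, 4 were higher in the cold in controls and 1 in knockout rats. Satellite cell markers, which mark the stem cells that express Myod1 when activated, had medians of 187 and 157 CPM in controls and 189 and 197 CPM in knockout rats, and 1 of 5 was lower in controls, the cadherin Cdh15 at -0.58 ± 0.19 (SE, adjusted p = 0.0252, edgeR). That sum follows mainly Sdc4 and Chodl, with group means of 116 to 160 and 32.1 to 37.3 CPM. Group means of Pax7, Myf5 and Calcr were 0.18 to 0.66 CPM, so the sum says little on satellite cell content. Erythroid markers had medians of 269 and 402 CPM in warm and cold controls and 230 and 577 CPM in warm and cold knockout rats, with 3 of 4 higher in controls and 1 of 4 in knockout rats. Schwann cell markers had medians of 193, 215, 171 and 213 CPM in the 4 groups. The fibre markers had medians of 183014 and 139427 CPM in controls and 166285 and 143530 CPM in knockout rats. The part of these shifts in the cold values of the 7 genes was not tested.

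For each gene the 3 genes of most similar pattern over the 32 libraries were found by the mean absolute difference in centred log2 CPM among 6947 genes. For Gadd45a these were Cst3, C1s and B2m, at 0.244 to 0.250, beside a median of 0.562 over all genes compared. For Cdkn1a they were Sln, Tinagl1 and Actc1, the cardiac actin that regenerating muscle expresses, at 0.588 to 0.609, beside 1.15. For Runx1 they were Phlda3, Ppp1r9b and Rras, at 0.259 to 0.290, beside 0.477. For Myod1 they were Morc4, Grhpr and Ppp1r27, at 0.337 to 0.366, and for Myf6 Atl2, Tob1 and Socs5, at 0.202 to 0.214. For Myog they were Bicc1, Dnaja1 and Enoph1, at 0.350 to 0.351 beside 0.540, and for Ncam1 Xpo1, Mcoln1 and Sptan1, at 0.397 to 0.409 beside 0.557.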

How the data were processed

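Libraries were made with the Lexogen QuantSeq 3′ kit and read as 50 bp forward reads, per the labels' protocols. Per the submitters' processing notes, the tools were R 3.4.3 and DESeq2 1.18.1 and the genome build was Rnor_6.0, and no source used here names the aligner. The authors deposited a table of read counts per gene, in which every count is even, and a table of normalized signal (counts divided by size factors of 0.523 to 2.06), used only to find the genes. The smallest total of any gene in the table was 96 counts.

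Counts were fitted with edgeR 4.0.16 (robust quasi-likelihood, TMM factors, 1 mean per group, genes kept by filterByExpr at a minimum count of 10, Benjamini-Hochberg threshold 0.05, limma 3.58.1) in R 4.3.3. DESeq2 1.42.0, other scalings and filters, and leaving out each library were tried as alternatives. The fit was tested on simulated data. CPM use TMM-scaled totals. The genes and lists were chosen with earlier results of these data known. From each list and cold contrast up to 4 genes of smallest p past the threshold, and relatives fixed by name, could be named, and 1 listed gene is not reported here. KO_RT libraries are named by their columns. Nothing says that every library is a separate animal, so p-values measure only the spread between these samples. No pair of libraries of 1 group was a duplicate. Promoters came from RefSeq (GRCr8).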

Additional observations from a re-analysis of the deposited data

Results flagged for a closer look

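In each of the 28 combinations of a gene and a group, the highest and lowest library were compared with the others by Dixon's ratio, which picks out about 1 in 20 groups by chance, and 2 stood out. Cdkn1a was at 120.0 CPM in replicate 2 of control_4C, where the gap to the next library was 0.606 of the group's range. Myf6 was at 72.7 CPM in replicate 1 of control_RT, with a gap of 0.657 of the range. Replicate 1 of control_RT also had the highest Myog of its group, at 329 CPM.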

How the results depend on the processing

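Over 9 alternatives, cold log2 changes ran from 1.17 to 1.39 in controls and 0.87 to 1.10 in knockout rats for Gadd45a, and from 1.89 to 2.22 and 2.35 to 2.61 for Cdkn1a. Over 32 fits without 1 library the number of the 7 genes called in the cold in controls ran from 2 to 4. The number of other listed genes called ran from 0 to 2 for knockout against control at room temperature and from 0 to 5 at 4 °C. DESeq2 called 4 of them at 4 °C, and 2 were called at room temperature without the 4 libraries that stood apart, against 0 for edgeR on all libraries. The cause was not tested. No called value changed sign. Small uncalled values did, such as Myod1 at 4 °C, knockout minus control, at -0.0023 with library totals only. Without 1 library, values at 4 °C ran from -0.15 to 0.10 for Gadd45a, -0.27 to 0.0079 for Runx1 and -0.066 to 0.26 for Myod1, cold Myog in controls from -0.13 to 0.16, and interactions from -0.17 to 0.13 for Myog and -0.15 to 0.061 for Myf6.

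By replicate number the libraries showed no pairing. Same-numbered libraries correlated at -0.19 to 0.082 in controls and -0.0084 to 0.12 in knockout rats, and none correlated best with its own number. In KO_RT these numbers came from the sample descriptions, which differ from the numbers in the column names. KO8 and KO9 were left out there, and pairing by column number was not examined. With the replicate block 4 and 2 of the 7 genes were called in the cold, as without it, and Cdkn1a was at 1.89 and 2.48. KO8 and KO9 carried no number in that fit, and contrasts between genotypes could not be fitted with the block. Ncam1 rests on 10 to 52 counts per library.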

Other observations

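The highest values of several of these genes came from the same libraries. Replicate 2 of control_4C had the highest level of its group for 5 of the 7 genes (Gadd45a, Cdkn1a, Runx1, Myog and Myf6), and replicate 2 of control_RT for 4 (Gadd45a, Cdkn1a, Runx1 and Myod1). In KO_RT, KO16 had the highest Myog, Myod1 and Myf6, while KO8 had the lowest Myog, Myf6 and Cdkn1a and the highest Runx1 and Ncam1. The pooled SD of log2 CPM within groups was 0.31 for Gadd45a, 0.44 for Myf6, 0.48 for Runx1, 0.52 for Myod1, 0.61 for Ncam1, 0.63 for Myog and 0.67 for Cdkn1a.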
